A study of Mus musculus with 2 samples.

Results

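The genes of hyaluronan synthesis, breakdown and binding were followed in MC3T3-E1 cells, an osteoblastic line established from mouse calvaria, by RNA sequencing. The cells were given 10 nM parathyroid hormone (PTH) for 1 h or were left untreated and also labelled 1 h. Both cultures were kept in medium with 10% serum and were seeded 24 h before treatment, and each condition had 1 library. The labels name no clone of the line and no vehicle. The group held 10 genes, Has1, Has2, Has3, Hyal1, Hyal2, Cd44, Tnfaip6, Vcan, Cemip and Hmmr, taken by symbol from the 55487 rows of the count table. Each symbol stood on 1 row, and all 10 rows had reads in both libraries and were among the 16408 rows with a total of 20 or more counts that entered the comparison. The genes were grouped by function with the PTH and untreated counts already known, so their values are a description and no member was tested.

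Hyaluronan is a long unsulphated glycosaminoglycan that Has1, Has2 and Has3 polymerise at the plasma membrane from cytosolic UDP-glucuronic acid and UDP-N-acetylglucosamine. Outside the cell it is held by the receptor Cd44 and by matrix proteins with link modules, such as versican (Vcan) and the product of Tnfaip6. Hyaluronidases (Hyal1, Hyal2) and the depolymerising protein Cemip cut it. In skeletal tissue it fills the space around cells, and osteoblasts carry Cd44. Osteoblasts respond to PTH by way of Pth1r, which raises cyclic AMP. In the PTH library Pth1r was at a ratio of 0.803 to the untreated one (0.772 to 0.835), with 4721 counts against 5709.

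The PTH library held 70036872 counts over genes and the untreated library 66302211. The libraries were put on 1 scale by edgeR's TMM method. Values in brackets after a ratio are its 95% exact counting interval, which covers counting error only, takes reads as independent and says nothing of the spread between cultures. With 1 library per condition there was no replicate check and no p-value, and the intervals compare these libraries, not the conditions. The rule of size asked for an interval lying wholly beyond 1.5-fold in either direction. All 8 osteoblast lineage markers were measured, and 7 were not past the rule, among them Col1a1, the main bone collagen gene, with 2093308 counts in the PTH and 1935295 in the untreated library, and Ibsp, a bone matrix gene, at a ratio of 0.774 (0.730 to 0.820). The exception was Sp7, which encodes osterix, with 1974 counts after PTH and 4583 untreated, a ratio of 0.418 (0.397 to 0.441). Of all compared rows, 5.39% had more reads past the rule and 3.54% fewer, and nothing is read from the markers' share. The leukocyte genes Ptprc, Adgre1, Itgam and Tyrobp and the endothelial genes Cdh5, Emcn, Kdr and Lyve1 were listed at 0 in both. Other markers of these lists had reads: Csf1r had 155 counts after PTH and 122 untreated, Cd68 57 and 67, and Acp5 8 and 0. Of the endothelial genes, Pecam1 had 9 counts in each library and Tek 4 after PTH and 0 untreated. Summed levels of the 6 endothelial markers were 0.188 and 0.134 CPM (scaled counts per 1000000) in the PTH and untreated libraries, and those of the 8 macrophage and osteoclast markers 96.5 and 87.0 CPM, nearly all of it Ctsk. The 6 chondrocyte markers summed to 716 CPM after PTH and 462 CPM untreated, of which Col2a1 made 555 and 411 CPM. Sox9 was past the rule, with 10982 counts after PTH and 3264 untreated, a ratio of 3.27 (3.14 to 3.40). Col2a1 at 1.35-fold and Comp at a ratio of 0.792 (0.620 to 1.01) were not past it. Col9a1 had 0 counts after PTH and 4 untreated, and Acan and Matn1 were listed at 0 in both. The 6 adipocyte markers summed to 0.795 and 0.685 CPM and the 6 muscle markers to 0.940 and 2.87 CPM. Acta1, a muscle marker, was past the rule, with 28 counts after PTH and 124 untreated, a ratio of 0.219 (0.140 to 0.333). The part of cells of these other types in the results below was not tested.

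The bases before the start of Has1 and of Tnfaip6 are shown because these 2 members had the highest ratios and each window held at least 1 of the 4 motifs searched. They are RefSeq promoter windows on GRCm38.p6, cut to the bases upstream of both the RefSeq and the GENCODE start and printed in the direction of transcription. The stretch printed for Has1 is chr17:17855206-17855438 on the minus strand, and that for Tnfaip6 is chr2:52037863-52038008 on the plus strand. Capitals mark the palindromic cyclic AMP response element TGACGTCA in Has1 and the AP-1 motif TGANTCA in Tnfaip6.
Has1: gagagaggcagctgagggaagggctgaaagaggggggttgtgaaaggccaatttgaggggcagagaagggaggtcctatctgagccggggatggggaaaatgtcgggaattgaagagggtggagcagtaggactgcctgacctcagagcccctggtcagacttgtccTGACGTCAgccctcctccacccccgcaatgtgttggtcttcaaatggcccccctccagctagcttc
Tnfaip6: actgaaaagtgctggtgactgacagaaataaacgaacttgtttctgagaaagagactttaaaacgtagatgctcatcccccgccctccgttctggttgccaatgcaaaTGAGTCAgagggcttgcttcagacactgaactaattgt

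The element in Has1 begins 83 bases before the RefSeq start and 66 before the GENCODE start. The motif in Tnfaip6 begins 142 bases before the RefSeq start and 38 before the GENCODE start. The motifs searched, on both strands and over windows of 300 bases from 250 before to 50 after the RefSeq start, were TGACGTCA, its shorter form TGACG (which lies within the full element on each strand), TGANTCA and AAAGGTCA, the NR4A monomer site. Windows were found for 8 members, without Has2 and Has3. Of these 8, Has1 held TGACGTCA and with it TGACG, Tnfaip6 held TGANTCA, and none held AAAGGTCA. Among all 32851 windows, 1.79% held TGACGTCA, 20.8% TGACG, 7.81% TGANTCA and 1.51% AAAGGTCA. TGACGTCA stood in 4.02% of the 473 genes with more reads after PTH past the rule of size and in 3.68% of the 326 with fewer, against 3.54% of the 10745 compared genes with a window. For TGACG the shares were 34.2% and 28.5%, against 34.9%. For TGANTCA they were 9.30% and 7.06%, against 6.26%, and for AAAGGTCA 1.27% and 1.23%, against 1.16%. These shares were not compared by a test. A match is a description of the letters and does not show that a factor binds there.

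Levels of different genes were compared as scaled CPM per kilobase of exon. In the PTH library the order was Cd44, Has2, Vcan, Hmmr, Tnfaip6, Has1, Cemip, Hyal2, Hyal1 and Has3, spanning 68.2 to 0.249. In the untreated library it was Cd44, Vcan, Hmmr, Has2, Cemip, Hyal2, Tnfaip6, Has3, Has1 and Hyal1, spanning 55.8 to 0.260. Has2 thus stood above Vcan and Hmmr in the PTH library and below both in the untreated one, and Has1 stood above Cemip, Hyal2 and Has3 after PTH and below all of these untreated. Counting intervals of neighbours overlapped for Has1 and Cemip in the PTH library, and for Hyal2 with Tnfaip6, Has3 with Has1 and Has1 with Hyal1 in the untreated one, so the order within these pairs is not resolved. With the longest transcript as the length, Cemip passed Has1 in the PTH library, at 8.76 against 6.84.

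**Figure D1:**
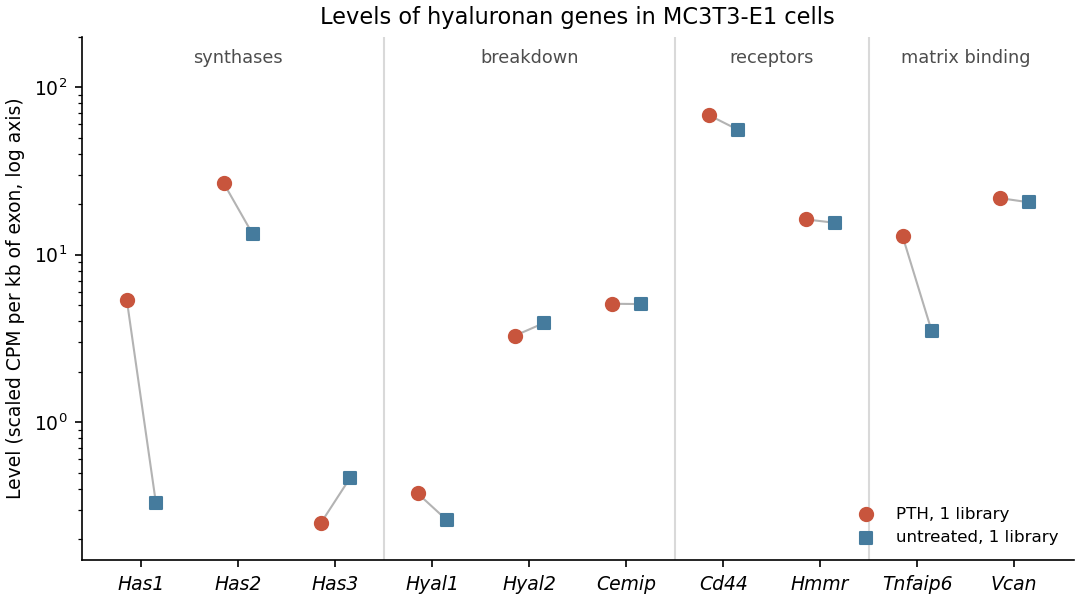
Level of each of the 10 genes (scaled CPM per kilobase of exon, log axis), with the PTH library as circles and the untreated library as squares, 1 library each and genes ordered by role. Has1, Has2 and Tnfaip6 are higher in the PTH library, at 5.36 against 0.330, 26.6 against 13.2 and 12.9 against 3.50, while Cd44 has the highest level in both. Has3 is lower in the PTH library, at 0.249 against 0.462, though not past the rule of size.

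Among the 10 genes, Has1, Has2 and Tnfaip6 had more reads after PTH past the rule of size, none had fewer, and 7 were neither. Over all compared rows 5.39% had more reads past the rule and 3.54% fewer, and since the genes were grouped with this comparison known, nothing is read from the members' share. The median log2 ratio was 0.19 over the members and 0.0016 over all compared rows. In bulk RNA, more transcript per cell and more cells that carry it cannot be told apart.

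**Figure D2:**
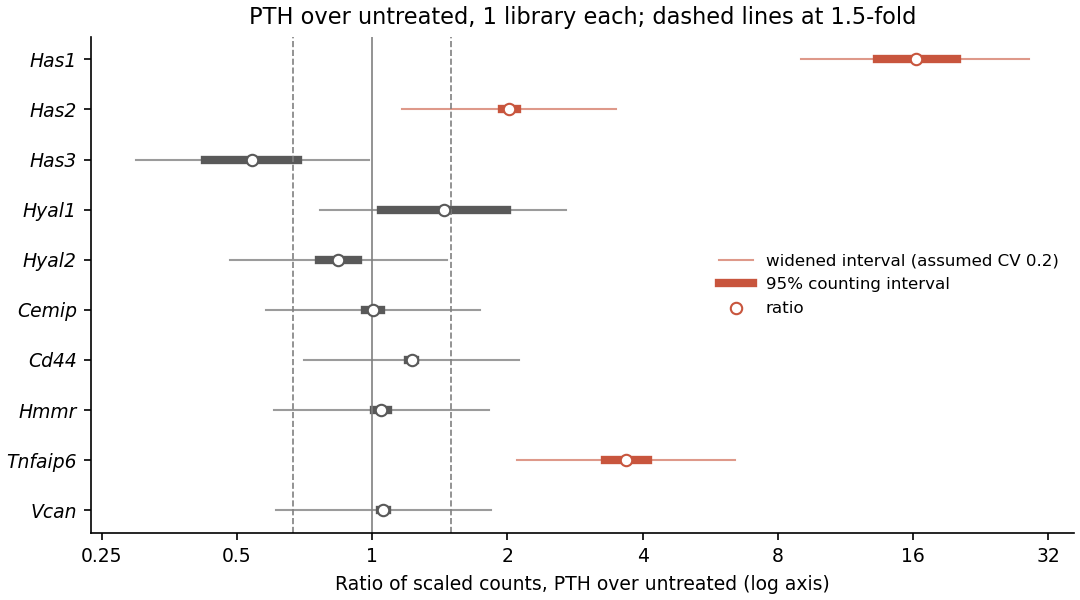
Ratio of scaled counts, PTH over untreated (log axis), for the 10 genes, with the 95% counting interval as a thick bar and an interval widened for an assumed coefficient of variation of 0.2 between cultures as a thin line. The counting intervals of Has1, Has2 and Tnfaip6 lie above the dashed 1.5-fold line, and the widened interval of Has2 crosses it.

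Has1, one of the 3 synthase genes (chromosome 17, 17843323 to 17855205, minus strand, mm10), had 1674 counts in the PTH library and 100 in the untreated library, a ratio of 16.3 (13.3 to 20.1). It was the member with the widest difference and ranked 8 from the top by ratio among the 12396 protein-coding genes that had 10 or more counts per library. No other annotated gene shares its exons. With the interval widened for an assumed coefficient of variation of 0.2 between cultures it stayed above 1.5-fold, at 9.02 to 29.0. Over all compared rows, 2.89% had more reads and 1.63% fewer by the rule with that widened interval.

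Has2, the main synthase gene of the mouse embryo (chromosome 15, 56665627 to 56694539, minus strand), had 7808 counts after PTH and 3756 untreated, a ratio of 2.02 (1.94 to 2.10). It ranked 393 of the same 12396 genes. Its widened interval, 1.16 to 3.50, was not wholly above 1.5-fold, and it was not past a 2-fold limit either. The antisense transcript Has2os covers 4.30% of its exonic length and had 108 counts after PTH and 89 untreated, a ratio of 1.18 (0.882 to 1.58).

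Has3, the third synthase gene (chromosome 8, 106870242 to 106884566, plus strand), had 110 counts after PTH and 198 untreated, a ratio of 0.539 (0.423 to 0.685). Its point value lay below the limit but its interval reached above it, so it was not past the rule of size. Exons of Chtf8 on the opposite strand cover 5.52% of its length, and Chtf8 had 7412 and 8152 counts in the PTH and untreated libraries. Strand use in counting was not stated, and whether some Has3 reads belong to Chtf8 was not tested.

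The make-up of the synthase transcripts differed between the libraries. Summed over the 3 genes, the level was 32.3 scaled CPM per kilobase in the PTH library and 14.0 in the untreated library. Has2 made up 82.6% of that level after PTH and 94.3% untreated, Has1 16.6% and 2.36%, and Has3 0.773% and 3.30%. As a share of synthase reads, Has1 took 17.5% of 9592 after PTH (16.7% to 18.2%, exact binomial) and 2.47% of 4054 untreated (2.01% to 2.99%). The level of Has2 was 4.97 times that of Has1 in the PTH library (4.72 to 5.25) and 40.1 times in the untreated library (32.8 to 49.4). Has2 was therefore the most abundant synthase transcript in both libraries, although Has1 had the higher ratio.

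**Figure D3:**
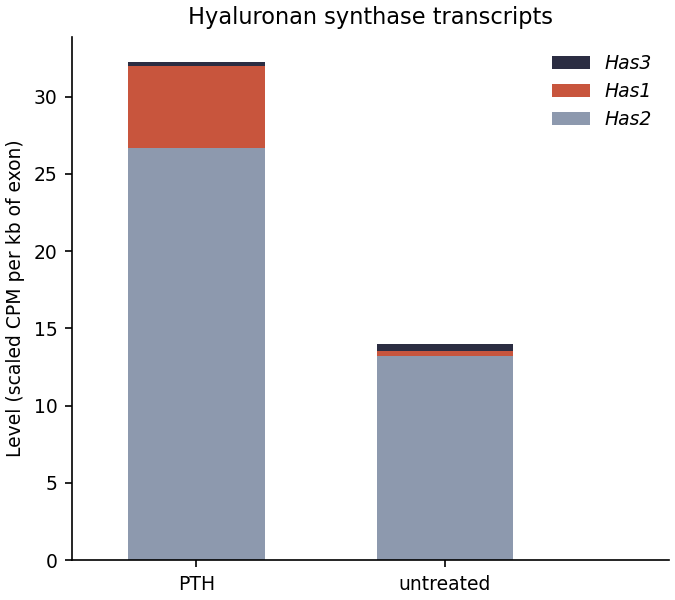
Stacked levels (scaled CPM per kilobase of exon) of the 3 synthase transcripts in the PTH and untreated libraries, 1 library each. The stack reaches 32.3 after PTH and 14.0 untreated, with Has2 the largest block in both and the Has1 block at 5.36 against 0.330.

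The members that cut hyaluronan were not past the rule of size. Cemip, whose product depolymerises hyaluronan (chromosome 7, 83932857 to 84086502, minus strand), had 4307 counts after PTH and 4165 untreated, a ratio of 1.00 (0.962 to 1.05). Hyal2, a hyaluronidase anchored at the cell surface (chromosome 9, 107567945 to 107572779, plus strand), had 747 counts after PTH and 863 untreated, a ratio of 0.841 (0.761 to 0.928). For these genes the counting intervals leave no difference as large as 1.5-fold between the libraries.

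Hyal1, the lysosomal hyaluronidase on the same chromosome as Hyal2 (chromosome 9, 107576927 to 107581710, plus strand), had 98 counts after PTH and 66 untreated. Its ratio of 1.44 (1.04 to 2.0) has a wide interval at these counts. A further limit, which the interval does not cover, is that 51.9% of its exonic length is shared with Hyal3 and Naa80 on the same strand. Hyal3 was listed at 0 in both libraries, and Naa80, an acetyltransferase gene, had 151 counts after PTH and 287 untreated. The assignment of reads from the shared exons was not stated.

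The receptor genes differed little. Cd44, the main cell-surface receptor for hyaluronan (chromosome 2, 102811141 to 102901665, minus strand), had 31961 counts after PTH and 25373 untreated, a ratio of 1.22 (1.20 to 1.24). Its interval excluded 1 but lay below 1.5-fold. The gene has 9 annotated transcripts, and counts per gene do not separate its splice forms. Hmmr, which encodes a hyaluronan-binding protein that also works at the mitotic spindle (chromosome 11, 40701395 to 40733422, minus strand), had 6102 counts after PTH and 5654 untreated, a ratio of 1.05 (1.01 to 1.09).

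The matrix proteins differed from each other. Tnfaip6, whose secreted product TSG-6 transfers protein heavy chains onto hyaluronan (chromosome 2, 52038009 to 52056686, plus strand), had 1523 counts after PTH and 402 untreated. The ratio was 3.68 (3.29 to 4.12), rank 102 of 12396, and the widened interval was 2.10 to 6.43. Vcan, the gene of the large proteoglycan versican (chromosome 13, 89655312 to 89742509, minus strand), had 21774 counts after PTH and 19961 untreated, a ratio of 1.06 (1.04 to 1.08). The order of these 2 genes by level was the same in both libraries, with Vcan above Tnfaip6, at 21.8 against 12.9 after PTH and at 20.6 against 3.50 untreated.

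**Figure D4:**
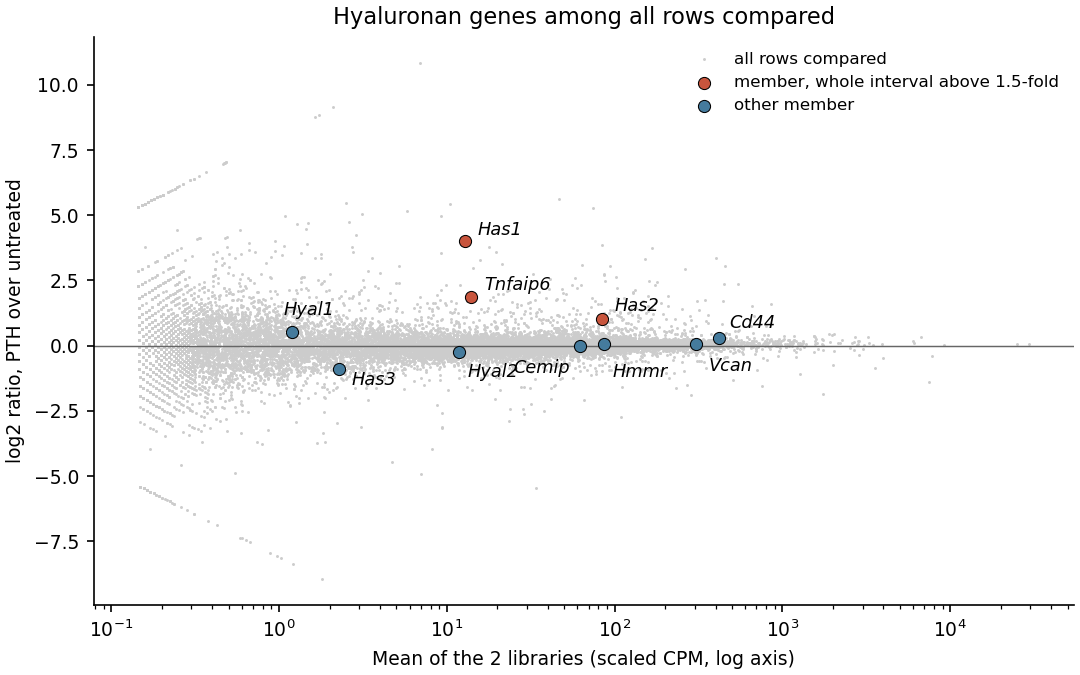
Log2 ratio of PTH over untreated against the mean of the libraries (scaled CPM, log axis) for the 16408 compared rows as small dots, with the 10 genes marked. Has1, Tnfaip6 and Has2 lie above the band of rows at their level, at 4.02, 1.88 and 1.01, and Cd44, Vcan, Hmmr and Cemip lie within it.

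Among the 9549 rows with at least 1000 counts, 95% had a ratio between 0.679 and 1.81. Has1, Tnfaip6 and Has2 lay above that range, and Hyal2, Cemip, Hmmr, Cd44 and Vcan inside it. Has3 and Hyal1 had fewer counts and do not belong to these rows.

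Of 17 genes listed around the UDP-sugars used for hyaluronan, 4 had more reads past the rule, 13 were neither and no gene had fewer. Among the 17, Abcc5, Ogt and Oga do not make UDP-sugars. Over all compared rows 5.39% had more reads past the rule and 3.54% fewer. This list and the related lists below were chosen with earlier results of these data known, so nothing is read from their shares. The list median was 0.07 on the log2 scale, against 0.0016 over all compared rows. Uap1, which makes UDP-N-acetylglucosamine, had 16385 counts after PTH and 6835 untreated, a ratio of 2.33 (2.26 to 2.39). Gfpt2, an isoform of the entry enzyme of the hexosamine pathway, had 767 and 431 counts, a ratio of 1.73 (1.53 to 1.95), and dropped out of the rule under total-count scaling. Gfpt1, the isoform with more counts (17868 after PTH and 14542 untreated), was at 1.19 (1.17 to 1.22). Ugdh, which makes UDP-glucuronic acid, had 16296 counts after PTH and 13484 untreated, a ratio of 1.17 (1.15 to 1.20).

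Like those above, the other members of this list past the rule serve more than hyaluronan. Hk2, a hexokinase gene of glucose use in general, had 13554 counts after PTH and 4876 untreated, a ratio of 2.70 (2.61 to 2.79). Slc35d1, which carries UDP-sugars into the endoplasmic reticulum and away from the site where hyaluronan is made, had 1731 and 663 counts, a ratio of 2.54 (2.32 to 2.78). Pgm3, a further hexosamine pathway gene picked after its values were seen, was at 1.47 (1.36 to 1.58) and overlaps Dop1a on the opposite strand over 28.3% of its exons. Gnpnat1, another gene of that pathway and picked in the same way, was at 0.979 (0.904 to 1.06). It overlaps Styx on the opposite strand over 81.9% of its exons. With the widened interval Hk2 alone of this list was past the rule.

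Other breakdown genes gave 1 of 7 measured members with more reads, 1 with fewer and 5 neither. The median of the list was 0.01 on the log2 scale. Cemip2, which encodes a hyaluronidase of the cell surface in mouse, had 13830 counts after PTH and 20650 untreated, a ratio of 0.650 (0.636 to 0.665), just past the limit. Its level was 23.5 scaled CPM per kilobase after PTH and 36.1 untreated, above those of Cemip, Hyal1 and Hyal2 in both libraries. Stab2, a clearance receptor known from liver endothelium, had 72 counts after PTH and 25 untreated, a ratio of 2.80 (1.75 to 4.60). Neither was past the rule with the widened interval. Ctsb, a lysosomal protease gene, was at 1.12 (1.09 to 1.15), and Hyal3, Hyal4, Spam1 and Lyve1 were listed at 0 in both libraries.

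Of 22 other genes that bind hyaluronan or link its matrix, 12 were measured, 1 had fewer reads and 11 were neither. Their median was 0.02 on the log2 scale. Ptx3, a pentraxin that works with TSG-6 in hyaluronan matrix, had 63862 counts after PTH and 54951 untreated, a ratio of 1.13 (1.12 to 1.14). C1qbp, a mitochondrial protein gene also described as a hyaluronan binder, was at 1.03 (0.994 to 1.06). Itih2, which encodes 1 of the heavy chains that TSG-6 transfers, had 12 counts after PTH and 36 untreated, a ratio of 0.324 (0.153 to 0.637). Itih1, Itih5, Ambp, Acan, Ncan and Impg1 were listed at 0 in both.

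No gene was past the rule among 12 partners and sheddases of Cd44, with a median log2 ratio of -0.03, or among 5 measured ADAMTS proteases that cut versican, with a median of 0.19. Msn, which links Cd44 to actin, was at 0.953 (0.940 to 0.967), and Mmp14, which sheds it, at 1.08 (1.06 to 1.09). Adamts1 had 84575 counts after PTH and 89090 untreated, a ratio of 0.922 (0.913 to 0.931), and Adamts5 was at 1.14 (1.12 to 1.15). Of 18 measured genes for sulphated glycosaminoglycans, which draw on the same UDP-sugars, 17 were neither, with a median of -0.0005. Among these were Chpf at 1.08 (1.06 to 1.11) and Ext2 at 1.01 (0.982 to 1.04), and the exception, Csgalnact1, was listed at 0 counts after PTH and 24 untreated. The 18 mitotic genes that are expressed with Hmmr were all neither, with a median of -0.15 that included Top2a at 1.02 (1.01 to 1.04) and Mki67 at 0.843 (0.829 to 0.858).

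**Figure D5:**
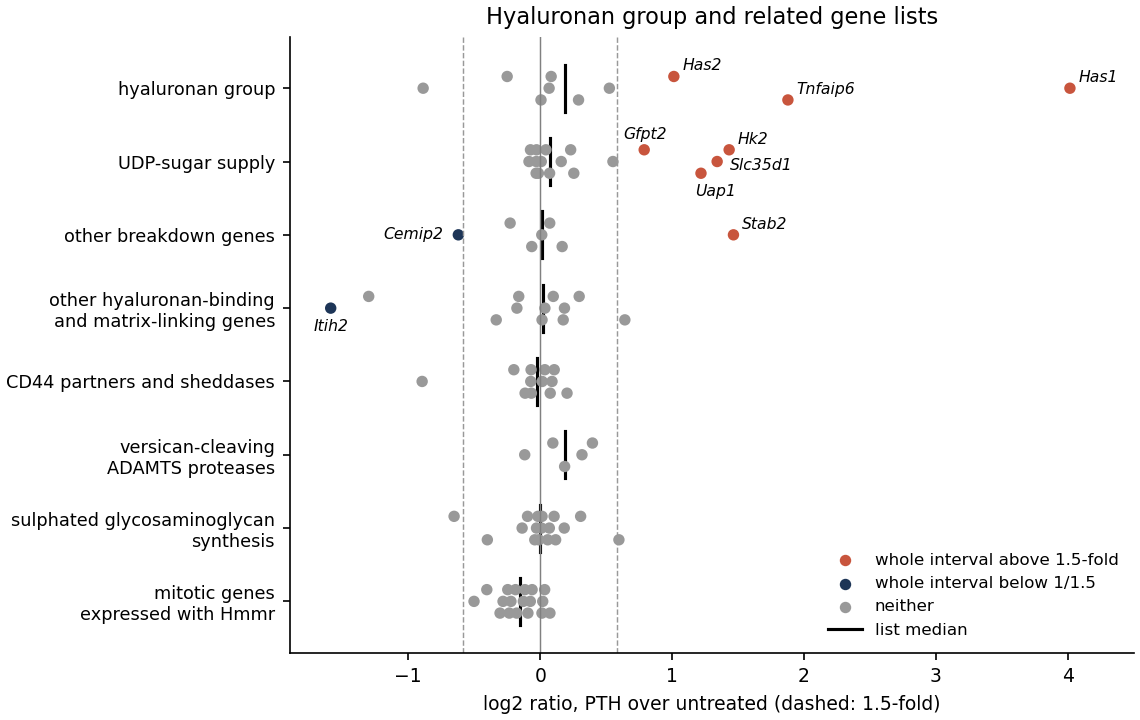
Log2 ratio of PTH over untreated for each measured gene of the hyaluronan group and of 7 related lists, with list medians as black bars and genes past the rule of size coloured and named; Csgalnact1, listed at 0 after PTH, is left out. The named genes with more reads after PTH are Has1, Has2, Tnfaip6, Hk2, Slc35d1, Uap1, Gfpt2 and Stab2, and the medians lie between -0.15 and 0.19.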

How the data were processed

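RNA was sequenced from 1 PTH-treated and 1 untreated culture of MC3T3-E1 cells. The authors deposited whole-number read counts per gene, not normalised, named by Ensembl identifier and symbol. Per the submitters' processing notes, HISAT2 and the mm10 build were used. The sources used here do not give the counting tool, annotation or use of strand. Gene type, position, exonic length (union of exons) and shared exons came from GENCODE M21 (GRCm38, also called mm10), which held 55227 of the 55487 identifiers; promoter windows came from RefSeq (GRCm38.p6).

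Counts were scaled by TMM effective library sizes (edgeR 4.0.16, R 4.3.3) over rows with 20 or more counts in total. With 1 library per group the quasi-likelihood test of edgeR had no residual degrees of freedom. Ratios therefore carry a 95% exact conditional (Clopper-Pearson) interval (Python 3.11.15, scipy 1.17.1). The code was tried on simulated counts with counting error alone, as the interval assumes, which cannot show its coverage in these libraries. Log2 ratios add 0.5 count. Widened intervals are normal approximations on the log scale. Reads copied by PCR are not independent, so intervals cover counting error only. A zero in 1 library beside 10 to 29 counts in its partner occurred in 598 rows, so a listed 0 is not read as absence. A zero count under sampling alone allows 3 counts, 0.0434 CPM in the PTH and 0.0447 CPM in the untreated library.

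The members, the 7 related lists, the 6 marker lists, the motifs and the rule of size were chosen with earlier results of these data known. The text names all members, Pth1r, and from each related list the genes past the rule (at most 4) and the 2 with most counts; other genes named were picked after their values were seen. Alternatives were other scalings (total counts, upper quartile, DESeq2 1.42.0 size factors), filters, a 2-fold limit, widened intervals, thinning of the PTH library, another pseudocount, transcript length and motif strand.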

Additional observations from a re-analysis of the deposited data

How the results depend on the processing

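Has1 and Tnfaip6 had more reads past the rule of size under every alternative scaling, filter, limit and interval tried and with thinning, and Has2 under all but the 2-fold limit and the interval widened for a coefficient of variation of 0.2, where 2 members remained. No member had fewer reads past the rule under any of them. Across the 3 other scalings and thinning, the ratio ranged between 15.8 and 16.5 for Has1, 1.97 and 2.02 for Has2, and 3.59 and 3.68 for Tnfaip6. It ranged between 1.19 and 1.22 for Cd44 and between 1.03 and 1.06 for Vcan. With total-count scaling both fell below their counting intervals, and Cd44 also did with upper-quartile factors. Over all rows, 884 had more and 581 fewer reads past the rule. The counts were 1386 and 983 with no filter, 543 and 307 with 100 or more counts in total, 517 and 262 with a 2-fold limit, and 475 and 268 with the widened interval. That interval left 1 of 5 related-list genes with more reads (Hk2) and 1 of 3 with fewer (Csgalnact1). Csgalnact1 had 0 counts after PTH and 24 untreated, the kind of zero that is not read as absence here. With 100 or more counts in total asked for, Stab2, Csgalnact1 and Itih2 dropped out, and Itih2 also did with thinning. With the longest transcript as length, the level of Has2 was 3.90 times that of Has1 after PTH and 31.4 times untreated; the shorter Has1 length sets this. With total-count scaling the medians of the other breakdown and the other binding genes were -0.02 and -0.01, below 0. The median over all compared rows was then -0.04, below both. Motif counts among members were the same on the given strand only. No replicate could be left out and no paired analysis was possible because each group has 1 library, and the spread between cultures is unknown. At 66 to 198 counts per library, Hyal1 and Has3 have intervals too wide to place against 1.5-fold.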
